A study of Mus musculus with 2 samples.

Results

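Hox genes encode homeodomain transcription factors that give cells their position along the body axis and along the limb. In mammals they lie in 4 clusters, HoxA to HoxD, in which the genes are numbered by their place (the paralogue number), so that genes of the same number in different clusters descend from 1 ancestral gene. Their promoters lie in CpG-rich DNA, and whole stretches of a cluster are switched on or kept silent together by Polycomb and Trithorax complexes, with DNA methylation as a further layer in differentiated cells.

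CpG methylation of 38 Hox genes was read from reduced representation bisulfite sequencing of mouse myotubes, which are multinucleate muscle cells formed by fusion of myoblasts. The members were the 38 genes of the clusters listed for analysis, of 55413 genes in the annotation. Each gene was represented by its body, from the start to the end of the annotated gene, and by a window of 1 kb on each side of its start. The cells were myoblasts of the mouse C3H line (from Sigma-Aldrich), differentiated into myotubes and then transfected with siRNA. Both libraries came from cells of this kind, harvested 48 h after transfection, 1 with a control siRNA (siCon) and 1 with siRNA that targets H19, a long non-coding RNA (siH19). The labels give no further genotype, age or treatment. H19 RNA was not measured in these files, so the knockdown could not be checked here. The question behind the comparison was whether lowering H19 changes DNA methylation across the genome. There was 1 library per group and no replicate, so every test below compares 2 libraries and not 2 conditions, and a difference between cultures and an effect of the siRNA cannot be told apart.

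A cytosine was compared when it had at least 5 reads in each library and lay outside CCGG and TCGA, the sites of the enzymes that cut the DNA. The 38 genes held 4045 of the 1850635 compared cytosines, at 2264 CpGs. Of these, 3699 lay in gene bodies, 1965 in the windows around the starts, and 715 belonged to 2 or more Hox genes because the annotated genes overlap. The median depth over the Hox cytosines was 27 reads in siCon and 28 in siH19, against 24 in both libraries over all compared cytosines. Each level is the share of methylated reads, and each interval is a Wilson 95% binomial interval that covers counting error only, since no molecular identifiers were used and several reads may copy 1 molecule. The reads of a region are summed over its cytosines, so a read that covers several of them is counted at each. Intervals of regions are then too narrow, and statements below that levels differ beyond their intervals carry this limit. Of the 7 windows of skeletal muscle genes with at least 5 cytosines, Des (desmin), Ckm (muscle creatine kinase) and Chrna1 (a subunit of the muscle acetylcholine receptor) had siCon levels of 3.98%, 7.98% and 0% (0 of 48 reads summed over 6 cytosines, with an upper bound of 7.41%). Myod1, Myf5, Myog and Mymx, which drive commitment and fusion of muscle cells, had 34.1%, 60.6%, 72.7% and 84.6%. The epithelial genes Cdh1 and Epcam had 39.1% and 59.3%, so the muscle and the epithelial windows overlapped in level.

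The states found in the clusters can be seen in the promoters themselves. The following reference sequences run from 250 bases before to 50 bases after the start of the gene (RefSeq, GRCm38.p6), 5′ to 3′ on the strand of the gene, with each CpG compared here in capitals.
Hoxa13, chr6:52260831-52261130, minus strand: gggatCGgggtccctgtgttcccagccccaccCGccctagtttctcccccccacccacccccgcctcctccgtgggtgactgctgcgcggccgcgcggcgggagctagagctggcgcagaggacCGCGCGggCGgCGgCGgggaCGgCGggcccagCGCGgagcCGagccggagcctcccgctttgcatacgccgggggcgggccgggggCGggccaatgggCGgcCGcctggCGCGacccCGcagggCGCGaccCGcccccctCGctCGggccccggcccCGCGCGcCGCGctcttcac
Hoxa6, chr6:52208623-52208922, minus strand: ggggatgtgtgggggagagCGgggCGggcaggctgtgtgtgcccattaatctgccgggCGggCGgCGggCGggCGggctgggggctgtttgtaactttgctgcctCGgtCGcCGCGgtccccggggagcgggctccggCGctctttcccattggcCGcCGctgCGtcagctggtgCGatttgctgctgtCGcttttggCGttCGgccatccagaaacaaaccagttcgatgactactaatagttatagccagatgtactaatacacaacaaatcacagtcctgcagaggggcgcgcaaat
Hoxa5, chr6:52204538-52204837, minus strand: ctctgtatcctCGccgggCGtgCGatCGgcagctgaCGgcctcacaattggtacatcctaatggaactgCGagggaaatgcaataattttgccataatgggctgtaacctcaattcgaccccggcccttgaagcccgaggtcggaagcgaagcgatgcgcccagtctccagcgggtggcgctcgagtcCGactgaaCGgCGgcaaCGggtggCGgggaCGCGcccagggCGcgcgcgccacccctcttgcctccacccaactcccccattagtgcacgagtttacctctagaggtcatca
Hoxd1, chr2:74762730-74763029, plus strand: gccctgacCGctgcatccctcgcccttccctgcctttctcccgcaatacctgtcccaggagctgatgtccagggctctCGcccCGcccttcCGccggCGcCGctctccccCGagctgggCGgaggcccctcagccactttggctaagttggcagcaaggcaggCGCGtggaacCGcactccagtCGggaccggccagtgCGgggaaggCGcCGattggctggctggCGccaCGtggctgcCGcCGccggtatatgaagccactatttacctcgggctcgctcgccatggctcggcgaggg
The 29 compared CpGs of the Hoxa13 promoter were methylated in 0.723% of reads in siCon and 0.675% in siH19, with a median CpG of 0% in both. The 14 compared CpGs of the Hoxa5 promoter, from the same cluster, were methylated in 91.0% and 94.9% of reads, with median CpGs of 97.4% and 98.6%. Between these extremes stood the Hoxa6 promoter, whose 19 CpGs ranged from 16.7% to 76.0% in siCon and together had 39.8% in siCon and 36.3% in siH19. The Hoxd1 promoter also had 19 compared CpGs, from 2.13% to 78.4% in siCon, with 40.1% and 38.6% of reads methylated. These promoters show the unmethylated, the methylated and the intermediate patterns described next, and in each of them the libraries lay within 4 points of each other.

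HoxA was split into a methylated and an unmethylated side. Hoxa2, Hoxa5 and Hoxa6, genes of the anterior and middle body, had window levels in siCon of 95.8%, 96.7% and 55.2%, and in siH19 of 96.8%, 95.6% and 49.96%. Hoxa4, which lies between them, had 33.8% and 35.5% over 125 cytosines. On the other side Hoxa7, Hoxa9, Hoxa10, Hoxa11 and Hoxa13, the genes of the trunk and limb, had window levels in siCon from 0% (Hoxa10, 0 of 1050 reads, which by the upper bound of the interval allows up to 0.364%) to 1.5% (Hoxa13), and in siH19 from 0.102% to 2.11%. The lowest HoxA window was thus Hoxa10 and the highest Hoxa5, with intervals that lay far apart.

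The change from one state to the other was located within the gap between covered fragments. Going from Hoxa6 towards Hoxa7, the last CpG before this gap methylated at 80% or more in both libraries lay at chr6:52209633, 911 bases before the start of Hoxa6, with all 39 reads methylated in siCon and all 49 in siH19. The next compared CpG lay 2085 bp further, at chr6:52211718, with 2.00% of 50 reads in siCon and 0% of 29 in siH19. None of the 18 CpGs between there and the start of Hoxa3 exceeded 8% in siCon or 3.45% in siH19. The annotated Hoxa3 gene, whose start lies on the far side of the gap, spans Hoxa4, Hoxa5 and Hoxa6 but not Hoxa2, and its body level of 58.4% in siCon and 59.3% in siH19 mixes both states. On the side of Hoxa7 to Hoxa13, 97.6% of the 743 cytosines were below 20% in siCon, against 11.8% of the 449 cytosines on the side of Hoxa2 to Hoxa6, where 55.7% exceeded 80%. In siCon 16 cytosines of the unmethylated side reached 50%: 11 in the 3′ part of Hoxa13 (its last coding exon, with the homeobox, had 97.5% in siCon and 100% in siH19) and 5 in Hoxa7. The boundary was in the same place in both libraries.

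**Figure D1:**
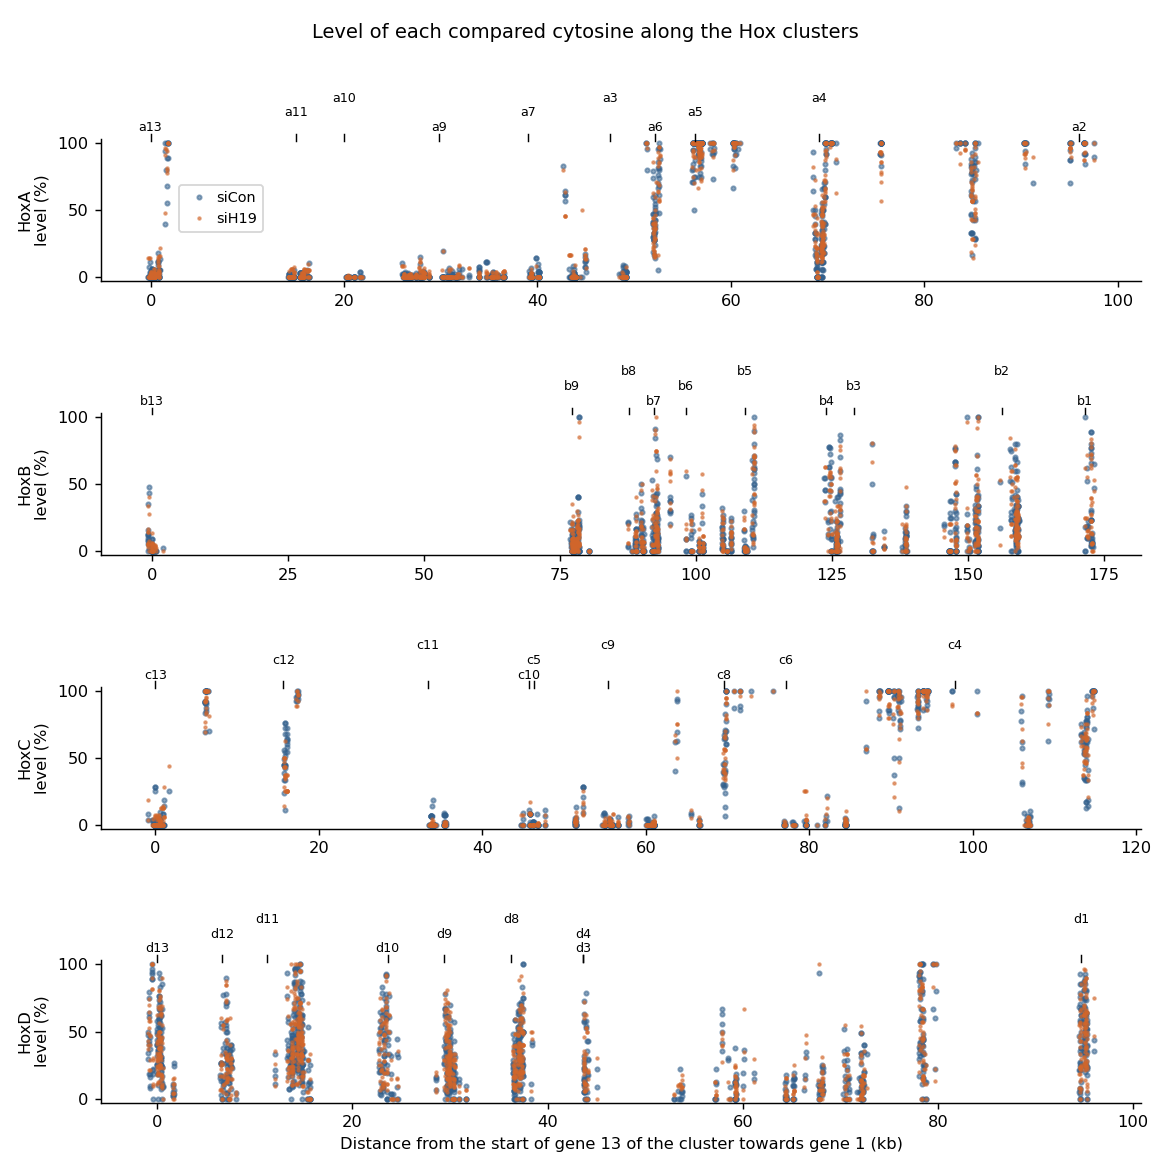
Level of each compared cytosine (percent of reads, vertical axis) against the distance in kb from the start of gene 13 of its cluster towards gene 1, for siCon (blue) and siH19 (orange); ticks mark annotated gene starts. Most HoxA and HoxC cytosines lie below 20% or above 80% in siCon, whereas 57.8% of the HoxD cytosines lie between 20 and 80%.

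HoxC held unmethylated, intermediate and methylated stretches rather than 1 boundary. The Hoxc12 and Hoxc8 windows were intermediate: 96.4% and 71.9% of their cytosines lay between 20 and 80% in siCon. Window levels in siCon were 1.38% at Hoxc13, 51.9% at Hoxc12, 1.40% at Hoxc11, 1.41% at Hoxc10, 0.735% at Hoxc9, 51.8% at Hoxc8, 0.796% at Hoxc6 and 1.07% at Hoxc5. Among windows with at least 10 cytosines, Hoxc9 was the lowest and Hoxc12 the highest in siCon, where Hoxc8 and Hoxc12 did not differ beyond their intervals. In siH19 the order at both ends was different, with Hoxc11 (0.211%) the lowest and Hoxc8 (62.4%) the highest, against 38.9% at Hoxc12. The other HoxC windows of that size lay in siH19 between 0.392% (Hoxc6) and 1.64% (Hoxc13). Hoxc4 had only 2 compared cytosines in its window, which together had 100% in siCon and 88.9% in siH19. The annotated starts of Hoxc4, Hoxc5 and Hoxc6 lie far upstream of the coding sequence, and the Hoxc5 window overlaps that of Hoxc10. With the start closest to the start codon instead, Hoxc6 had 96.0% in siCon and 95.2% in siH19, Hoxc5 had 89.5% and 91.0%, and Hoxc4 had 59.3% and 61.0%. For these genes the start that was used therefore decided which state was seen: their outer starts lay in unmethylated DNA and their inner starts in methylated DNA, apart from Hoxc4.

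HoxD was mostly at intermediate levels. In HoxD the windows around the annotated starts of all 8 genes with at least 5 cytosines lay between 23.6% and 46.7% in siCon. Hoxd1, at the anterior end, had the highest level, with 46.7% in siCon and 47.0% in siH19. Hoxd13, which patterns the digits, followed with 43.5% and 40.0%, and Hoxd10 with 36.2% and 40.9%. Hoxd8 had 32.2% and 28.8%, and Hoxd12 had 30.2% and 27.4%. Hoxd9 had 25.7% and 31.7%. The starts of Hoxd3 and Hoxd4 are 2 bp apart in the annotation, so both had the same window, the lowest of the cluster at 23.6% and 27.1%. Around the start closest to the start codon both were lower, with 18.1% and 15.7% at Hoxd3 and 19.9% and 16.7% at Hoxd4. Hoxd11 had 4 cytosines around its annotated start but 191 around the start closest to its start codon, with 45.9% and 47.1%.

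In HoxB the levels were lower. Hoxb4 had the highest window, with 39.4% in siCon and 39.9% in siH19, and Hoxb5 the lowest, with 3.98% and 4.19%. Hoxb1, which specifies a segment of the hindbrain, had 24.7% and 28.1%. Hoxb7 had 16.0% and 17.9%, Hoxb6 had 12.6% and 12.2%, and Hoxb8 had 10.1% and 10.0%. Hoxb13, far from the other genes of its cluster, had 6.94% and 7.16%, and Hoxb9 had 5.32% and 6.28%. Hoxb2 had 2 cytosines at its annotated start and Hoxb3 had none. From the inner starts, Hoxb2 had 41.8% and 46.5% and Hoxb3 had 14.5% in both. Hoxb6, Hoxb7 and Hoxb8, neighbours in this order, did not differ beyond their intervals in siCon, and the Hoxb8 window rested on 6 cytosines.

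**Figure D2:**
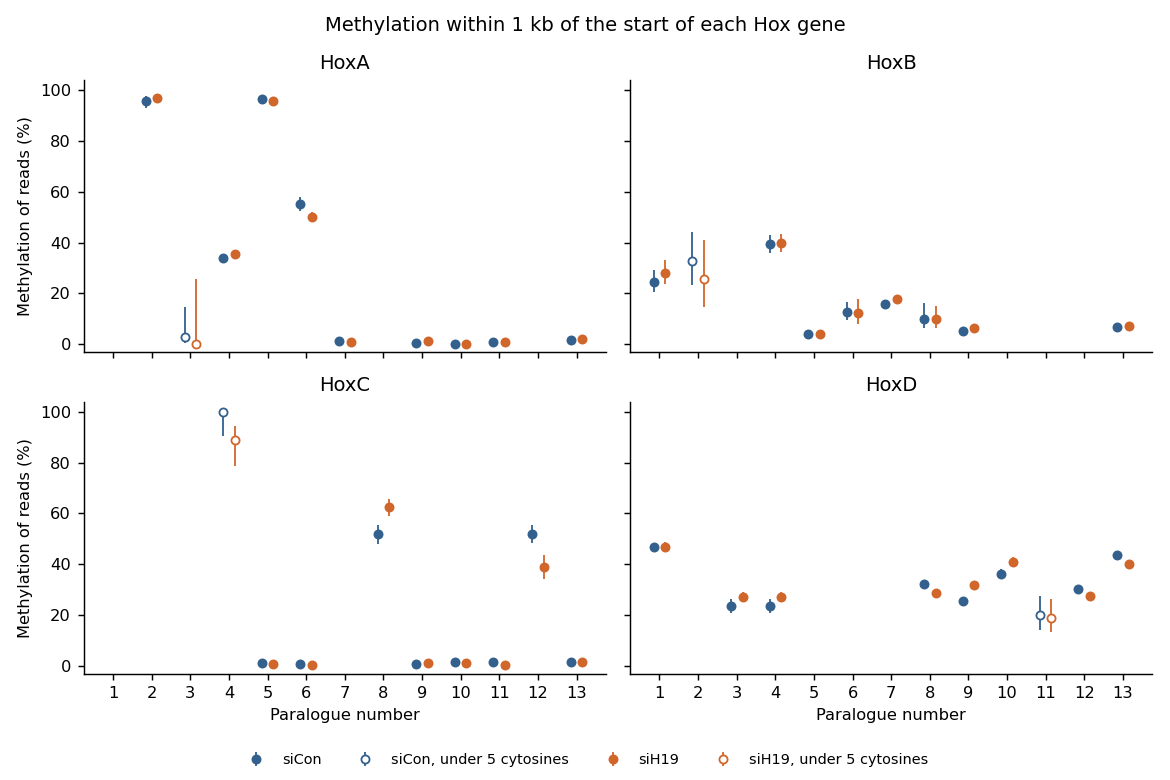
Percent of methylated reads within 1 kb of the annotated start of each Hox gene (vertical axis) against its paralogue number (horizontal axis) for siCon (blue) and siH19 (orange), with Wilson 95% intervals of the reads; open circles mark windows with under 5 cytosines. Most neighbouring points of the libraries lie close together, whereas genes of the same number often differ between clusters.

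Genes of the same paralogue number shared a level in some sets and not in others. Around the annotated starts, among the number 13 genes, which act at the posterior end of the body, siCon levels were 1.38% at Hoxc13, 1.5% at Hoxa13, 6.94% at Hoxb13 and 43.5% at Hoxd13. The number 9 genes had 0.524% at Hoxa9, 0.735% at Hoxc9, 5.32% at Hoxb9 and 25.7% at Hoxd9. In both sets the HoxA and HoxC genes did not differ beyond their intervals, and the HoxD gene was the highest. The number 10 genes gave 0% at Hoxa10, 1.41% at Hoxc10 and 36.2% at Hoxd10. The number 11 genes Hoxa11 and Hoxc11 had 0.796% and 1.40% in siCon, with overlapping intervals. In siH19 they had 0.916% and 0.211%, and the intervals did not overlap. Around the start closest to the start codon Hoxd11 had 45.9% in siCon over 191 cytosines. Its annotated start had only 4. The number 4 genes with enough cytosines were closer together than those above, with 33.8% at Hoxa4, 39.4% at Hoxb4 and 23.6% at Hoxd4. This depended on the start: around the start closest to the start codon Hoxd4 had 19.9% and Hoxc4, then with 44 cytosines, had 59.3%. The windows of Hoxa4 and Hoxb4 were the same with both starts. The number 8 genes had 10.1% at Hoxb8, 32.2% at Hoxd8 and 51.8% at Hoxc8. In the number 5 and 6 genes the order depended on the start. Around the annotated starts Hoxa5, Hoxb5 and Hoxc5 had 96.7%, 3.98% and 1.07%, and around the start closest to the start codon Hoxc5 had 89.5%, next to Hoxa5. Likewise Hoxa6, Hoxb6 and Hoxc6 had 55.2%, 12.6% and 0.796%, and from the inner start Hoxc6 was the highest of them with 96.0%, against 10.1% at Hoxb6. From the inner starts Hoxa9 (1.68%) and Hoxc9 (0.537%) differed beyond their intervals.

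The levels of single cytosines showed the same division between clusters. In siCon 57.8% of the 1207 HoxD cytosines lay between 20 and 80%, against 27.9% of 893 in HoxB, 15.9% of 753 in HoxC and 13% of 1192 in HoxA. Over the whole genome the share was 25.8%. Levels under 5% were found at 57.6% of cytosines in HoxA and 54.3% in HoxC, but at 12.1% in HoxD. Levels above 80% were found at 21.7% of cytosines in both HoxA and HoxC, at 5.63% in HoxD and at 1.57% in HoxB. In siH19 the shares between 20 and 80% were 59.7% in HoxD, 29.3% in HoxB, 16.3% in HoxC and 14.5% in HoxA, within 2 percentage points of siCon in each cluster. Cytosines of a cluster share fragments and reads, and these shares are given as a description.

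**Figure D3:**
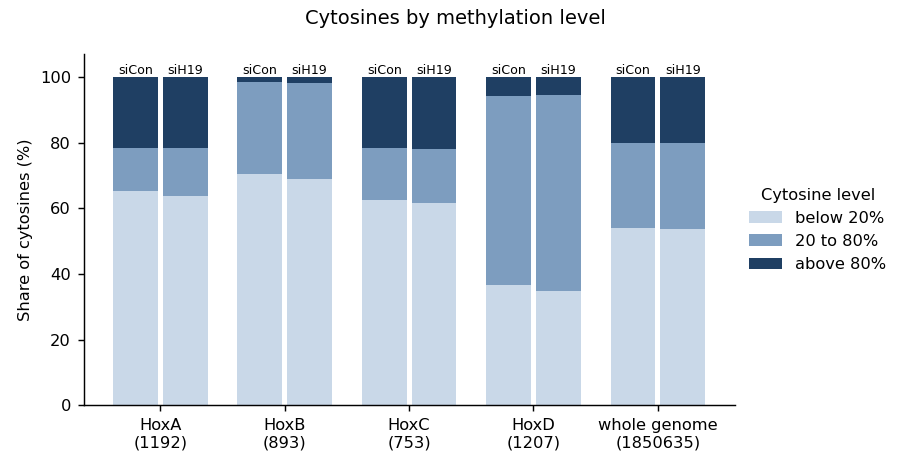
Share of compared cytosines (percent, vertical axis) with a level below 20%, from 20 to 80% and above 80%, in each Hox cluster and in the whole genome, with siCon and siH19 side by side and the number of cytosines under each name. The middle class takes 57.8% of HoxD in siCon and 13% of HoxA.

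CpG-rich promoters are the kind that is mostly unmethylated across the genome, and many Hox windows were not. Among protein-coding windows in which CpGs reached at least 0.6 of the number that base composition predicts, 10.1% of 7327 had a level of 20% or more in siCon, with a median of 1.17%. Of the 19 Hox windows of that kind, 11 (57.9%) had 20% or more, with a median of 23.6%. With the start closest to the start codon the Hox count was 10 of 22, against 10.0% of 6877 windows, and the Hox median was lower, at 13.1%. The Hox windows include overlapping ones, and no test was made of this difference.

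Exons of the same gene also differed. Most Hox genes have 2 coding exons, and the last one encodes the homeodomain. In HoxC the last coding exon was the higher in 6 of 7 genes with at least 3 cytosines in both exons, with median levels of 57.9% in the first and 94.9% in the last exon in siCon. Hoxc13 went from 1.33% in its first exon to 93.2% in its last, and Hoxc12 from 54.2% to 94.9%. Hoxc11 was the exception in siCon, with 1.49% and 1.28%, and Hoxc6 in siH19, with 95.2% and 93.8%. HoxD showed the reverse: the last exon was the higher in 1 of 6 genes, Hoxd4, and the medians were 35.3% in the first and 17.7% in the last exon. In Hoxd11, for example, the first exon had 52.9% over 114 cytosines and the last 7.69% over 8, and in Hoxd13 the levels were 42.0% and 9.26%. In HoxB the last exon was the higher in 6 of 9 genes. Hoxb5 went from 0.806% to 55.03%, whereas Hoxb4 went from 49.3% to 6.69%. In HoxA 3 genes could be compared, with 29.9% and 100% in Hoxa4, 97.9% and 90.0% in Hoxa5, and 0.711% and 1.91% in Hoxa10. In siH19 the counts were 6 of 7 in HoxC, 1 of 6 in HoxD, 6 of 9 in HoxB and 3 of 3 in HoxA.

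The comparison of siH19 with siCon was made within cytosines, because the reads fall on different fragments in the 2 libraries. The HoxA level shows why this matters. Over all HoxA reads it was 16.9% in siCon and 22.9% in siH19, but the mean of the cytosine levels was 28.6% and 28.7%. The matched difference, which weights each cytosine by its reads in both libraries, was 0.19 percentage points (95% interval -0.11 to 0.49) with a Cochran-Mantel-Haenszel adjusted p-value of 0.457. In HoxC the matched difference was 0.11 points (-0.25 to 0.47, adjusted p-value 0.744) and in HoxD 0.043 points (-0.568 to 0.655, adjusted p-value 0.892). In HoxB it was 0.911 points (0.404 to 1.42, adjusted p-value 0.00246), and with the variance scaled by the spread among cytosines the adjusted p-value was 0.00673. By strand, the HoxB difference was 0.930 points (plus) and 0.893 points (minus). Over all compared cytosines of the genome the matched difference was 0.244 points, in the same direction as in HoxB. These p-values treat reads as independent and the intervals come from the same assumption, and both are too narrow where neighbouring cytosines share reads.

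Gene by gene, no Hox window met both criteria of a call, an adjusted p-value under 0.05 and a matched difference of at least 10 points. The count was 0 of 33 windows tested, against 0.626% of all windows. An adjusted p-value under 0.05 alone was found in 5 of the 33 windows, against 7.39% of all windows tested. Of these, 3 were higher in siH19 (4.92% of all windows) and 2 lower (2.47%). In all, 7 had an unadjusted p-value under 0.05, against 21.3%. For windows with at least 25 cytosines, the counts were 5 of 27 against 9.43%. The difference was above 0 in 20 and below 0 in 13 windows, with 55.1% above 0 over all windows. When the test was scaled by the spread among cytosines, 0 Hox windows passed, against 0.590% of all windows, with 6 at an unadjusted p-value under 0.05, against 13% of all windows. When Fisher's exact test was made on summed reads, 8 passed, against 16.8%. Gene bodies gave 0 calls of 38, against 0.365%, and 6 adjusted p-values under 0.05, against 3.70%. Of these, 4 were higher in siH19 (2.6% of all bodies) and 2 lower (1.1%). All 6 lay among the 34 bodies with at least 25 cytosines, for which the share over all genes was 4.62%. Here the difference was above 0 in 26 bodies and below 0 in 12, with 55.3% above 0 over all bodies. An unadjusted p-value under 0.05 was found in 13 bodies, against 17% of all. The scaled test passed 0 bodies, against 0.275%, with 10 at an unadjusted p-value under 0.05, against 9.77%. Fisher's exact test on summed reads passed 15 bodies, against 37.4%.

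The windows with an adjusted p-value under 0.05 were those of Hoxa4, Hoxb9, Hoxd9, Hoxc11 and Hoxc12. At Hoxa4 siH19 was higher by 4.23 points (interval 2.13 to 6.33, adjusted p-value 0.00582), with 7.23 points on the plus and 1.77 points on the minus strand. At Hoxd9 siH19 was higher by 3.55 points (1.76 to 5.35, adjusted p-value 0.00507) and at Hoxb9 by 1.61 points (0.712 to 2.50, adjusted p-value 0.0164). With at least 20 reads per cytosine, Hoxa4 and Hoxb9 had adjusted p-values of 0.438 and 0.0621. Hoxc11 had 1.40% in siCon against 0.211% in siH19, a matched difference of -1.37 points (adjusted p-value 1.94e-06). Most of it lay on the minus strand (-2.57 points against -0.169 on the plus strand). There, 6 cytosines within 35 bases held 18 of the 24 methylated reads of the window in siCon. They were picked as the minus-strand cytosines with 31 or 62 reads and a methylated read in siCon. Their part of the methylated reads was thus in part fixed by that choice. Without the deepest 1% of cytosines the difference was -0.673 points (adjusted p-value 0.0227).

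Hoxc12 had the largest difference, with 51.9% in siCon and 38.9% in siH19 and a matched difference of -9.94 points (-15.8 to -4.04, adjusted p-value 0.0280). It rested on 14 minus-strand cytosines with 24 or 25 reads in siCon and 8 reads in siH19, which had 63.9% and 33% and were lower in siH19 at 14 of 14. The other 14 cytosines of the window had 41.3% and 41.0%, 7 higher and 7 lower. With at least 10 reads per library the matched difference of the Hoxc12 window was 1.59 points, with an adjusted p-value of 0.881, in the opposite direction. That setting kept only 7 of the 28 cytosines of the window. Among windows without an adjusted p-value under 0.05, those lower in siH19 with the largest differences were Hoxb4 (-6.56 points, adjusted p-value 0.0721) and Hoxa6 (-2.16 points, 0.404). Those higher in siH19 were Hoxc8 (4.86 points, 0.205), the window shared by Hoxd3 and Hoxd4 (2.83 points, 0.315) and Hoxb6 (2.82 points, 0.613). The Hoxb4 window depended on the setting. With at least 10 reads per library it had -8.74 points over 14 cytosines (adjusted p-value 0.0367), and with at least 20 reads -9.35 points over 9 (0.0476). Its summed reads differed by 0.525 points, in the opposite direction. The Hoxc8 window illustrates the summed reads, with 51.8% and 62.4%, a gap of 10.6 points that shrank to 4.86 once cytosines were matched.

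Among gene bodies the adjusted p-value was under 0.05 for Hoxb6 (2.14 points, 0.0498), Hoxb9 (1.71 points, 0.00739), Hoxc5 (0.734 points, 0.0455) and Hoxd9 (3.06 points, 0.0193), all higher in siH19, and for Hoxc11 (-1.13 points, 3.83e-05) and Hoxc12 (-7.22 points, 0.0409). The bodies of Hoxb9, Hoxc11, Hoxc12 and Hoxd9 include a large part of the windows above and are no separate evidence. The Hoxc5 body is 49987 bp long in this annotation and takes in the neighbouring genes from Hoxc10 to Hoxc6. The largest body differences without a passing p-value were 4.96 points at Hoxc8 (adjusted p-value 0.187), 4.23 points at Hoxb5 (0.126), 3.13 points at Hoxa4 (0.124), -2.94 points at Hoxd13 (0.131) and -2.26 points at Hoxd10 (0.752).

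**Figure D4:**
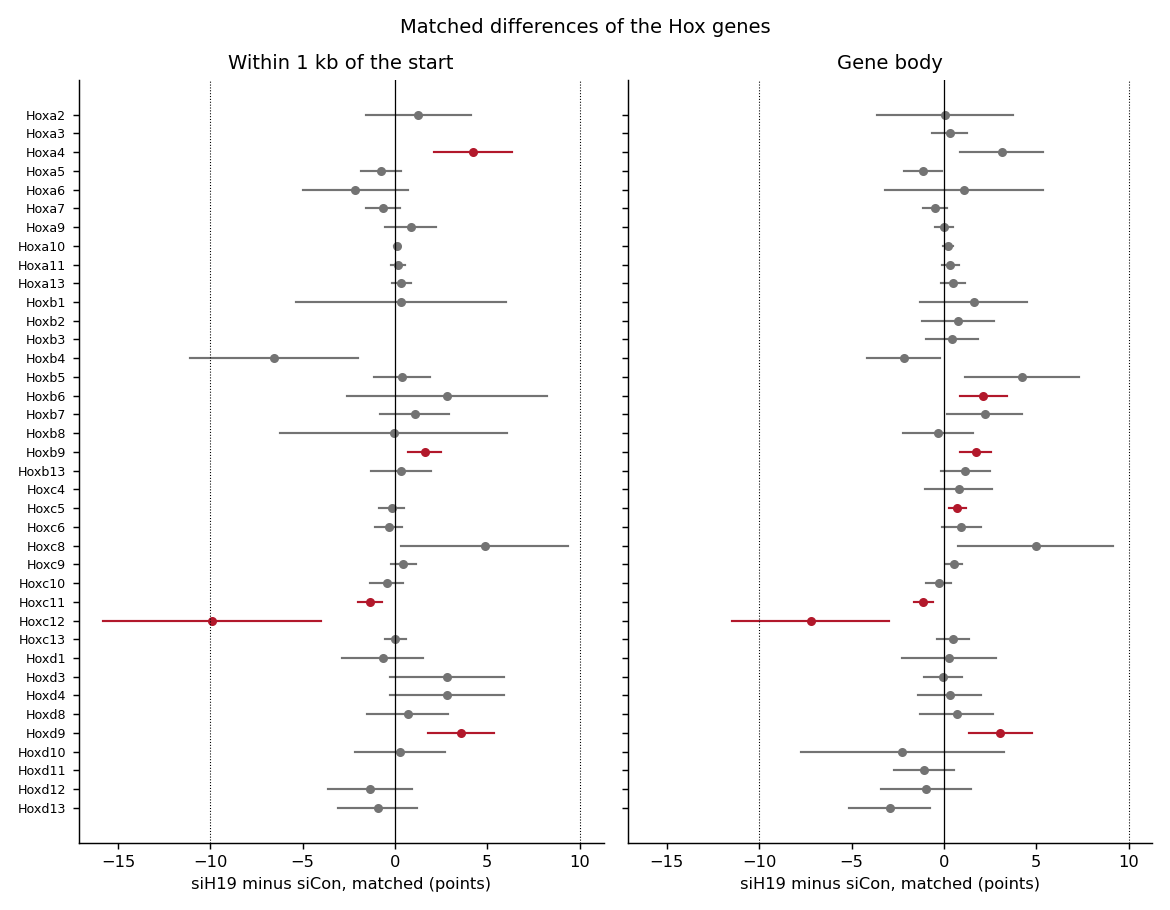
Matched difference in percentage points, siH19 minus siCon (horizontal axis), for each Hox gene within 1 kb of its start (left) and in its body (right), with 95% intervals of the reads. Red marks an adjusted p-value under 0.05, dotted lines the 10-point limit, and genes with no point had under 5 cytosines; no estimate passes the limit.

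At single cytosines, 49 of the 4045 Hox cytosines were strongly changed, that is, they differed by 33 points or more with a Fisher's exact p-value below 0.05. That was 1.21%, against 0.986% of all compared cytosines. Of these, 31 were higher in siH19, against a background of 0.519%, and 18 lower, against 0.467%. HoxD held 32 of them (2.65% of its cytosines), HoxB 10 (1.12%), HoxC 5 (0.664%) and HoxA 2 (0.168%). Among cytosines between 20 and 80% in siCon, 27 of 1222 in the Hox genes were strongly changed, 2.21%, against 2.20% of all such cytosines. By cluster, these shares were 2.44% in HoxD (17 of 698), 2.01% in HoxB, 3.33% in HoxC and 0.645% in HoxA. No Hox cytosine had an adjusted p-value under 0.05, against 0.00648% of all cytosines, and 155 (3.83%) had an unadjusted p-value under 0.05, against 2.53%. Of the 42 strongly changed cytosines whose partner on the other strand was compared, the partner moved the same way in 22 and was itself strongly changed in 0. The shares over all strongly changed cytosines were not computed, so these 2 counts cannot be set against a background. The same Fisher's exact test between the strands of 1 library differed at 4.77% of 1781 Hox CpGs in siCon and 3.71% in siH19. Over all 755414 such CpGs it differed at 3.51% and 3.28%. Between libraries it differed at 4.16% and 3.82% of Hox CpGs on the plus and minus strand, against 2.55% and 2.52% of all. The shares were highest in HoxD, with 8.51% and 5.435% between strands and 7.065% on each strand between libraries.

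The cytosines with the lowest p-values were named in each direction. Higher in siH19 were chr2:74698119 in exon 1 of Hoxd9 (2 of 31 reads, 6.45%, in siCon and 11 of 20, 55%, in siH19), chr2:74746377 in exon 3 of Hoxd3 (16.7% and 69.2%) and chr11:96271558 in exon 1 of Hoxb9 (0% and 35%). Their Fisher's exact p-values were 1.72e-04, 2.27e-04 and 7.76e-04, and their adjusted p-values 0.346, 0.387 and 0.632. Lower in siH19 were chr2:74692895 in the body of Hoxd10 (33.3% and 0%), chr2:74705738 in exon 1 of Hoxd8 (83.3% and 22.2%) and chr2:74683099 in exon 1 of Hoxd11 (77.8% and 33.3%). Their partners on the other strand differed by less. They had 33.3% and 47.6% at the Hoxd9 CpG, 38.3% and 40.0% at the Hoxd3 CpG, 12.1% and 21.7% at the Hoxb9 CpG, and 0% in both libraries at the Hoxd10 CpG. At the Hoxd8 CpG the partner had 25% of 8 reads and 0% of 9, and at the Hoxd11 CpG it differed in the opposite direction, with 16.7% and 34.1%.

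In Hoxd9 and Hoxd8 several strongly changed cytosines lay side by side. Each stretch below was cut at the first and last of these cytosines, so differences inside it were in part fixed by that choice. The reference sequences of the stretches are shown on the plus strand of GRCm38, with the CpGs of the strongly changed cytosines in capitals (minus-strand cytosines in Hoxd9, plus-strand ones in Hoxd8).
Hoxd9, chr2:74698118-74698245: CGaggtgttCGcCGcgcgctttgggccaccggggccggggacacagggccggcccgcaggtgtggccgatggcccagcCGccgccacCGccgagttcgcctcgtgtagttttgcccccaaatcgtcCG
Hoxd8, chr2:74705738-74705772: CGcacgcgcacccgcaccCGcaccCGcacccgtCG
The Hoxd9 stretch of 128 bases, in exon 1, held 14 compared cytosines on each strand. On the minus strand 12.3% of reads were methylated in siCon and 37.1% in siH19, and all 14 cytosines were higher in siH19. On the plus strand the levels were 20.5% and 31.5%, and 13 of 14 were higher. Depth on the minus strand was 31 or 32 reads at each cytosine in siCon and 19 to 22 in siH19, and how many reads the 14 values share was not tested. The Hoxd8 stretch behaved differently. Its 8 plus-strand cytosines, with 12 reads each in siCon and 27 or 28 in siH19, had 39.6% in both libraries when pooled, yet single cytosines differed by -61.1 to 51.2 points, 3 higher and 3 lower. The 8 minus-strand cytosines, with 8 reads each in siCon and 9 or 10 in siH19, had 37.5% and 24.1%.

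**Figure D5:**
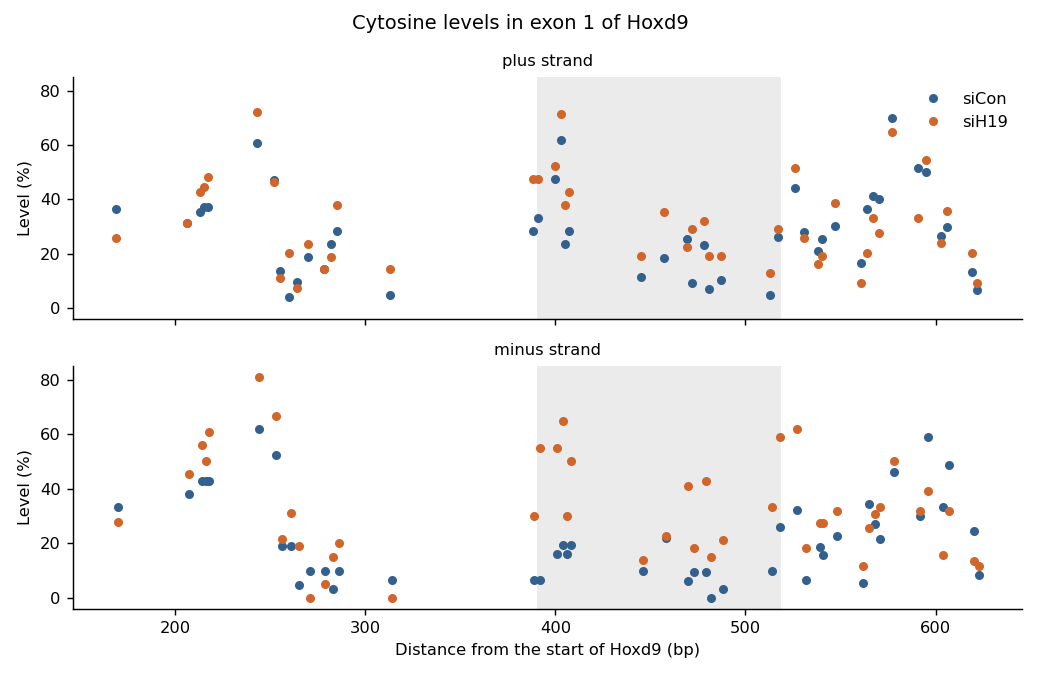
Level of each compared cytosine (percent of reads, vertical axis) against the distance in bp from the start of Hoxd9, on the plus strand (top) and the minus strand (bottom), for siCon (blue) and siH19 (orange); grey marks the stretch with 6 strongly changed minus-strand cytosines. On the minus strand all 14 cytosines of the stretch are higher in siH19, and the libraries overlap to either side. The ends of the stretch were set at the first and last of the 6 cytosines, so this contrast was in part fixed by that choice.

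The clusters also encode microRNAs, which belong to a list of 15 cluster RNAs and edge genes. The mature sequences (RefSeq, GRCm38.p6) are shown with the seed, bases 2 to 8, in capitals, because the genes of each family share a seed across clusters.
Mir10b (HoxD): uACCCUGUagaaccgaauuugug
Mir10a (HoxB): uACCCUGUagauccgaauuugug
Mir196a-1 (HoxB) and Mir196a-2 (HoxC): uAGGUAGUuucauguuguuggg
Mir196b (HoxA): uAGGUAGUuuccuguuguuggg
The Mir10b window, which lies within Hoxd3 and Hoxd4, had 36.7% in siCon and 28.0% in siH19 over 17 cytosines, a matched difference of -8.98 points (-14.1 to -3.90, adjusted p-value 0.0155). The Mir196a-1 window, upstream of Hoxb9, had 25.4% and 17.4%, a matched difference of -7.95 points (-13.1 to -2.84, adjusted p-value 0.0490). Neither passed the scaled test, with adjusted p-values of 0.304 and 0.228. Mir10a had 30.7% and 29.7%, Mir196a-2 had 4.70% and 4.19%, and Mir196b had 0.927% and 0.686%, so the 3 genes with the miR-196 seed differed beyond their intervals in siCon, whereas Mir10a and Mir10b did not. Of the 11 windows of this list that could be tested, 2 had an adjusted p-value under 0.05, against 7.39% of all windows. Both were lower in siH19 (2.47% of all windows). The largest difference in the list, 16.0 points at Hotairm1 over 8 cytosines (38.6% and 54.8%), had an adjusted p-value of 0.150. Of 9 bodies, 2 had one (3.70% of all bodies), both higher: Evx1, a homeobox gene beyond Hoxa13 (3.26 points, 0.0354), and the antisense gene Hoxb5os (2.30 points, 0.00382), whose body overlaps Hoxb5 and Hoxb6. Neither passed the scaled test, with adjusted p-values of 0.315 and 0.0725 for these bodies. Mir615, inside Hoxc5, had 94.0% and 94.5%.

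The windows of genes for partners of Hox proteins had low levels. Pbx, Meis and Pknox genes encode TALE homeodomain proteins that bind DNA together with Hox proteins. All 9 of their windows could be tested, with siCon levels from 0.434% to 4.85%, and 0 had an adjusted p-value under 0.05 in the Cochran-Mantel-Haenszel test, against 7.39% of all windows. Their bodies had a median of 22.2% in siCon, against 24.1% for the Hox bodies, and no difference between these lists was tested. In siH19 the medians were 14.5% and 25.7%. These levels are of summed reads, which move with where reads fall. The median matched difference of the bodies of the partner genes was 0.0909 points. The highest window was Pbx3, with 4.85% in siCon and 1.76% in siH19 but a matched difference of 0.263 points, within the list's range of -0.378 to 1.44. Of the genes next to the clusters, 6 windows could be tested, from 0.409% to 17.1%. Only that of Mtx2, beside HoxD, had an adjusted p-value under 0.05, against 7.39% of all windows. Its difference was 2.05 points (9.46e-04, and 0.153 in the scaled test). Of the 9 bodies of these genes, 2 had an adjusted p-value under 0.05, against 3.70% of all bodies. The Mtx2 body was higher in siH19 by 2.05 points (0.00159), with the same read counts as its window. The Calcoco1 body, near HoxC, had -7.79 points over 19 cytosines (0.0387, and 0.442 in the scaled test).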

How the data were processed

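DNA from siCon and siH19 myotubes was digested with MspI and TaqαI and profiled by reduced representation bisulfite sequencing, 1 library per group. The authors had the reads aligned by Bismark, in its non-directional mode, within the pipeline of the service provider (mm10 and bcl2fastq 1.8.4 are named in the submitters' processing notes) and trimmed filled-in bases. Removal of duplicates was not given in the sources used here. The deposited files hold, for each CpG cytosine and strand, a text field with methylated and total read counts, not normalized, and a score up to 1000 computed by the authors from the methylated share, which matched the counts in 100% of entries. The siCon library had 5453019 entries and the siH19 library 5266846, with median depths of 12 and 13 reads.

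All 6041258 positions on chromosomes were CpG cytosines of GRCm38, and gene positions were taken from GENCODE (vM21, basic set). Coordinates count from 1. Kept were cytosines outside CCGG and TCGA that had 5 or more reads per library, strands apart. Fisher's exact test (two-sided) was used for cytosines, and for each window or body with at least 5 cytosines the Cochran-Mantel-Haenszel test stratified by cytosine, with Benjamini-Hochberg adjustment over all cytosines, windows or bodies of the genome (over the 4 clusters for the cluster test). This test was preferred to Fisher's test on summed reads because summed reads move with where reads fall. Its difference is the matched difference, with weights n1n2/(n1+n2) per cytosine. A region was called at an adjusted p-value under 0.05 and 10 points or more. The scaled test divides the statistic by the dispersion among cytosines. The scripts were tested on simulated data. Python 3.11.15, numpy 2.4.6, scipy 1.17.1, pandas 2.3.3 and matplotlib 3.10.9 were used.

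The genes and lists were chosen with earlier results of these data known. Named were all genes with an adjusted p-value under 0.05, the highest and lowest window of each cluster and the 3 largest differences in each direction among regions with at least 10 cytosines, and the 3 cytosines with the lowest p-value in each direction among strongly changed ones with at least 10 reads in each library. 1 further Hox gene is not analysed here. Alternatives were stricter read minimums, sites included, summed strands, no repeats, no deepest cytosines, other tests, other windows and other weights.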

Additional observations from a re-analysis of the deposited data

How the results depend on the processing

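No paired analysis was possible because each group had 1 library, and for the same reason no library could be left out. The HoxB matched difference kept its direction and an adjusted p-value under 0.05 under all alternatives tried. Unweighted differences reuse the main p-value, so with them only direction and size could change. Leaving that setting out, 111 of 151 single-gene values kept direction and side of the threshold, 25 kept direction but lost the threshold, 7 gained it and 8 reversed, 4 of which also lost the threshold. In the scaled test all 5 windows and 6 bodies lost it. The causes were not tested.

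The 49 strongly changed Hox cytosines became 110 at a minimum of 20 points, 10 at 50 points, 11 with at least 20 reads, 86 with cytosines inside CCGG or TCGA and 12 with strands summed. With the enzyme-site cytosines 16 of 5553 (0.288%) had an adjusted p-value under 0.05 instead of 0, against 0.236% of all cytosines in that setting. Called windows went from 0 to 1 with strands summed, 2 with Fisher's test on summed reads, 1 with unweighted differences and 5 with no minimum difference, and called bodies from 0 to 2, 1 and 6 under the last 3 of these. With no minimum difference the shares over all genes were 7.39% of windows and 3.70% of bodies. For the other call counts, and for the counts of strongly changed cytosines under the alternatives, no such share was given, so they cannot be set against a background.

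Window levels in siCon (20.7% HoxA, 10.9% HoxB, 8.10% HoxC, 34.8% HoxD) became 19.05%, 10.2% and 6.045% in HoxA to HoxC with at least 10 reads and 12.76%, 10.12% and 5.442% with at least 20. With enzyme-site cytosines they were 29.23%, 23.18%, 21.3% and 40.6% in HoxA to HoxD. Strands summed gave 9.622% in HoxC, and leaving out repeats 23.18% in HoxA and 34.1% in HoxD. Unweighted means were 32.2%, 12.25% and 11.88% in HoxA to HoxC. Windows of 500 bp gave 21.95%, 8.252% and 9.769% there, windows of 2 kb 18.47%, 12.86%, 9.784% and 33.35% in HoxA to HoxD, and the start closest to the start codon 16.14% in HoxA, 20.05% in HoxC and 35.68% in HoxD. Body levels in siCon (17.7%, 15.7%, 23.8% and 31.9%) became 15.9% in HoxA and 22.27% in HoxC with at least 10 reads, and 10.64% and 18.7% with at least 20. With enzyme-site cytosines they were 29.54%, 25.52%, 35.96% and 38.14%. HoxA bodies had 18.23% with strands summed and 18.29% without repeats, and HoxC bodies 24.53% without the deepest 1% of cytosines. Unweighted body means were 29.72%, 16.92% and 31.3% in HoxA to HoxC.

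Fisher's test on summed reads gave a HoxA difference of 6.084 points (adjusted p-value 3.66e-95). Directions reversed for HoxC with strands summed (-0.00118), summed reads (-0.1102) and unweighted differences (-0.2096), and for HoxD with strands summed (-0.03349) and windows of 500 bp (-0.1969). For single genes they reversed with at least 10 reads at Hoxc12 (window 1.587, body 0.6016) and with at least 20 at Hoxc12 (1.587 and 0.4885), the Hoxa6 window (0.6055) and the Hoxa4 body (-0.07709), and with summed reads at the Hoxb4 window (0.5249) and the Hoxa4 body (-1.052). With enzyme-site cytosines the windows of Hoxc11 and Hoxc12 had adjusted p-values of 0.156 and 0.118. The median depth of 27 reads in siCon limits what single cytosines can show.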
